A study of Mus musculus with 8 samples.

Results

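The genes described here are 9 regulators of apoptosis in the mouse limb bud: Casp9, Apaf1, Bcl2l11, Pmaip1, Bmf, Bax, Bak1, Bcl2 and Bcl2l1. They were chosen by name, and every probe set whose only annotated gene symbol was one of them was taken, which gave 25 of the 45101 probe sets on the array and 8 of the 9 genes. No probe set was annotated to Bax alone, and Bax was not analysed here. The 25 were 5 for Bcl2, 5 for Bcl2l11, 4 for Bcl2l1, 3 for Casp9, 3 for Bmf, 2 for Apaf1, 2 for Bak1 and 1 for Pmaip1. Of these, 19 passed the filter on low signal, which asked for an intensity above the 40th percentile of the array (the filter level, 50.8 to 91.9) in at least 4 of 8 columns. Each of the 8 genes had at least 1 such probe set and is represented by the brightest.

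The cells came from limb buds of E10.5 mouse embryos, in mid gestation, that carried the Shhgfpcre allele on 1 chromosome, so that both groups share this genotype. This allele places green fluorescent protein (GFP) and Cre at Shh, the gene of the Sonic hedgehog ligand. A fluorescence sort of dissociated limbs kept the GFP-positive cells as the zone of polarizing activity, the posterior signalling mesenchyme (ZPA), and the GFP-negative cells as everything else (non-ZPA). The non-ZPA group therefore holds every limb cell without GFP, including ectoderm, muscle precursors, blood and vessel cells, and the labels do not say whether fore or hind limbs were used or how many embryos were pooled. The series lists 4 samples a group, but ZPA replicates 1 and 2 held the same values to within 0.5 intensity units, and they were counted as 1 array, called ZPA array 1+2. All comparisons rest on 3 ZPA and 4 non-ZPA arrays, tested with limma on log2(intensity + 16), and a gene was called at an adjusted p under 0.05. A negative log2 fold change means a lower signal in ZPA cells, and ± after it is the standard error. Separate litters or sorts are not stated, so that p-values measure only the spread between these arrays, which may be technical.

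Apoptosis is a form of regulated cell death in which proteases called caspases take the cell apart. In its mitochondrial route, BH3-only proteins bind and block survival proteins of the BCL2 family, which frees Bax and Bak (Bak1) to open the outer mitochondrial membrane. Bim (Bcl2l11) binds the survival proteins broadly, including Bcl-2 (Bcl2) and Bcl-xL (Bcl2l1), Bmf binds Bcl-2 and Bcl-xL among others, and Noxa (Pmaip1) binds Mcl-1 rather than these. Cytochrome c then leaks out and joins Apaf-1 in a complex, the apoptosome, which activates caspase-9. In the limb bud, cell death shapes the apical ridge, the anterior and posterior margins and later the tissue between the digits.

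Shh was the check of the sort, at an intensity of 6226 to 12149 on the ZPA arrays and 203 to 1085 on the non-ZPA arrays. Of 4 posterior limb markers tested, all 4 were positive, but only Shh, the gene that carries GFP, was called. Hand2 (log2 fold change 1.52, limma adjusted p = 0.0947) did not overlap between the groups. Hoxd13 (2.03, adjusted p = 0.171) and Hoxd12 (0.79, adjusted p = 0.588) overlapped. The arrays were not alike in other respects. Bacterial and phage spike-ins had a mean log2 signal above the non-ZPA mean by 3.28 on ZPA array 1+2, 2.55 on ZPA array 4 and 0.53 on ZPA array 3. The 18 probe sets of this mean include those for phage cre. The sorted allele also carries Cre, so that on those probe sets spike-in and the cells' own transcript cannot be told apart. The 3 prime Actb probe set was 21.6 times the 5 prime one on ZPA array 4 and 2.04 to 5.37 times elsewhere, a ratio that can rise as RNA breaks down. The same ratio of Gapdh was 9.02 on ZPA array 4, 2.56 on ZPA array 3 and 1.21 on ZPA array 1+2. On the non-ZPA arrays the Gapdh ratio was 3.67 to 5.77. What set these ratios was not tested. Limb mesenchyme markers were present, with 6 of 6 tested and sums of 20357 to 26202 in ZPA and 14967 to 24867 in non-ZPA arrays. Muscle precursor markers (4 tested of 5, 3 called lower in ZPA) had sums of 156 to 338 against 867 to 3054. Myf5, 1 of the 3 called, was under the filter level on each ZPA array. It passed the filter only through the non-ZPA arrays, which favours a lower value in ZPA, so that its call is no support for a difference. Surface ectoderm markers (8 of 8 tested, 2 called lower) had sums of 853 to 1917 against 3482 to 6937. Erythroid markers (6 tested of 7, all 6 negative, median log2 fold change -1.48, 2 called lower) had sums of 17870 to 48020 against 28849 to 38950, most of it from Hbb-y, while Hba-x was at 347 to 997 against 2342 to 9466. Endothelial markers (5 tested of 7, 0 called by limma, 0 at an unadjusted p under 0.05) had sums of 709 to 2721 against 714 to 2318. Leukocyte markers (6 of 6 tested, 0 called by limma, 1 at an unadjusted p under 0.05) had a sum of 13250 on ZPA array 4, against 655 on ZPA array 3, 1324 on ZPA array 1+2 and 949 to 1655 on the non-ZPA arrays. Ptprc alone of these markers was not highest on ZPA array 4, at 136 there and 165 on ZPA array 1+2. Apical ridge markers (3 tested of 5) had sums of 225 to 451 against 284 to 552. Immediate early genes (6 of 6 tested, 4 negative and 2 positive) had sums of 3829 to 12372 against 4153 to 9516. Proliferation markers (4 tested of 5, all 4 positive) had sums of 63947 to 82764 against 44358 to 52096. By limma these 3 lists had 0 called genes, and 0, 3 and 0 genes at an unadjusted p under 0.05 in this order. The part of any of these in the results below was not tested. Title numbers split the arrays into run 1 (ZPA array 1+2, non-ZPA arrays 1 and 2) and run 2 (arrays 3 and 4 of both groups). Scan days fall the same way where they are recorded, which excepts ZPA replicate 2.

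Casp9, the initiator caspase of the mitochondrial route, and Bmf, a BH3-only protein, were the 2 members whose brightest probe set was lower on every ZPA array than on any non-ZPA array, and their promoter windows are shown for that reason. Each window runs from 250 bases before to 50 bases after an annotated start in RefSeq on build GRCm38.p6, written 5′ to 3′ along the gene, with GC boxes in capitals. Casp9 is at chr4:141793362-141793661 on the plus strand. Bmf has 3 annotated starts, and the one farthest upstream is shown, at chr2:118549637-118549936 on the minus strand.
Casp9: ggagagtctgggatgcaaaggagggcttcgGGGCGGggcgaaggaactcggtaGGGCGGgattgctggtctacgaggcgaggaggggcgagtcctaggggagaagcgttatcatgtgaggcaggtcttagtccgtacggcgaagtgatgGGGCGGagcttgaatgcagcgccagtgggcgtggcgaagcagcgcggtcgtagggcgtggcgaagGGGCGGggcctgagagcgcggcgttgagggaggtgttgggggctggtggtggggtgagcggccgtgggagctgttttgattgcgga
Bmf: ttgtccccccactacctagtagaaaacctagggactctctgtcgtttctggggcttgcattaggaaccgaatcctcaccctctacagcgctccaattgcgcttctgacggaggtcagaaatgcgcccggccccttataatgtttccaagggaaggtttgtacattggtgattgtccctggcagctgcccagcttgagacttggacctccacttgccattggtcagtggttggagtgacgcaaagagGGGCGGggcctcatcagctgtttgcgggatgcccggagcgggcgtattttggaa
The GC box (GGGCGG or its reverse complement CCGCCC) was found 4 times in the Casp9 window and 1 time in this Bmf window, and 35.7% of all 32851 promoter windows of the table hold at least 1. It was found 7 times in the Bcl2 window and 3 times each in the Apaf1, Bax and both Bcl2l11 windows. The remaining Bmf windows and those of Bcl2l1 and Bak1 held 0. The GLI site (GACCACCCA, either strand), the motif of the transcription factors that act downstream of Shh, was found in none of the 13 windows that the table holds for Bax and for the tested members other than Pmaip1, and in 0.253% of all windows. The FOXO site (GTAAACA, either strand) was in 1 of the Bcl2l11 windows and in 3.65% of all. The p53 element, searched by name as its decamer, was in another of the Bmf windows, in the Bax window and in 8.36% of all. None of these other motifs was in the 2 windows shown. These are matches of letters, not shown binding sites.

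Casp9 was lower in ZPA cells by its brightest probe set, 1437537_at. Its intensity was 479 on ZPA array 1+2, 178 on ZPA array 3 and 260.5 on ZPA array 4, against 1408, 842, 748 and 1202 on non-ZPA arrays 1 to 4. The groups did not overlap, and the lowest non-ZPA array lay above the highest ZPA array. The means were 306 ± 156 (SD, n = 3) and 1049.8 ± 309 (SD, n = 4), a 3.46-fold difference (log2 fold change -1.79 ± 0.39 SE, limma adjusted p = 0.0339 over 13341 genes). Casp9 was the only 1 of the 8 tested members to pass, where 2.44% of all tested genes passed, and in the fit over all 27816 tested probe sets it was the only 1 of 19 (adjusted p = 0.0383), where 1.74% passed. On the same ZPA arrays the summed muscle precursor and surface ectoderm markers and the erythroid Hba-x were lower, by the values given above, and their part in the result was not tested. As in any bulk sample, fewer cells of a type and less RNA per cell cannot be told apart. The call ended (adjusted p from 0.0635 to 0.114) when any array other than ZPA array 1+2 was left out, and was kept without that array (log2 fold change -2.16, adjusted p = 0.00374).

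The other probe sets of Casp9 did not show this difference. On 1426125_a_at, whose suffix marks probes shared by transcript variants of the gene, the intensity was 79.0, 146 and 169 on the ZPA arrays and 158, 88.9, 241 and 198 on the non-ZPA arrays. The groups overlapped, and its log2 fold change was -0.33 ± 0.45 (adjusted p = 0.756). The remaining probe set, 1457816_at, was not tested, because only ZPA array 1+2, at 173, lay above the filter level and the other 6 arrays were at 13.9 to 54.1. With the mean of the tested probe sets taken as the gene's value, Casp9 had a log2 fold change of -1.06 and did not pass (adjusted p = 0.114).

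Apaf1, the scaffold of the apoptosome, was not shown to differ. Probe set 1452870_at was at 690, 1021 and 667 on the ZPA arrays and 915, 1022, 740.0 and 928 on the non-ZPA arrays. The groups overlapped, and the highest array was only 1.53 times the lowest. The log2 fold change was -0.20 ± 0.31 (adjusted p = 0.775), and that of the dimmer 1450223_at was -0.18 ± 0.62 (adjusted p = 0.917). Whether Casp9 and Apaf1 differ in their change was not tested.

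**Figure D1:**
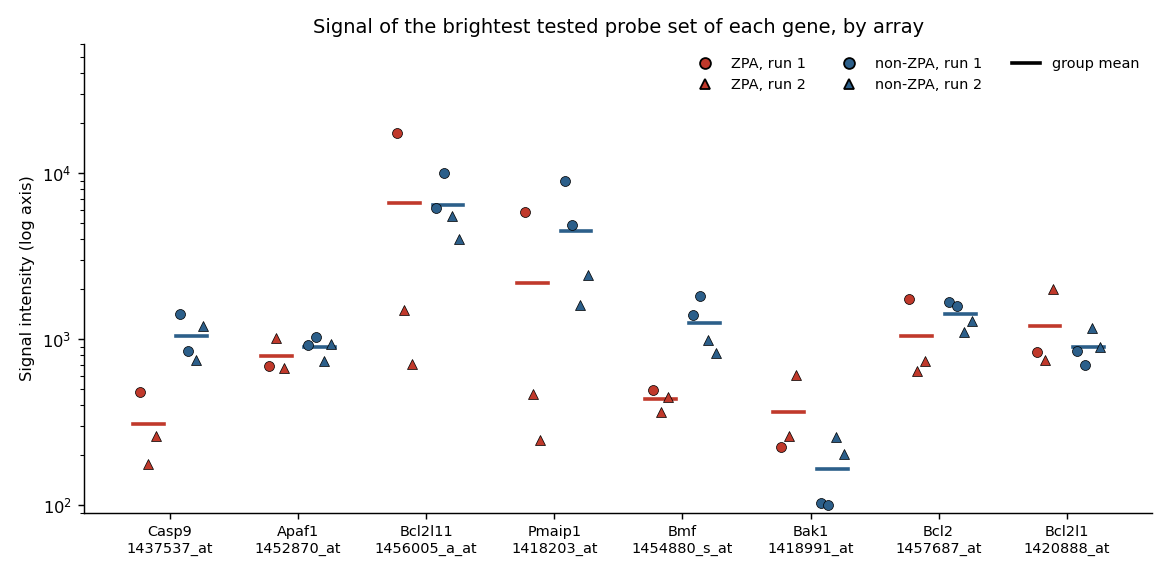
Signal intensity on a log axis of the brightest tested probe set of each of the 8 members, 1 point per array, in red for the 3 ZPA and blue for the 4 non-ZPA arrays, with circles for run 1, triangles for run 2 and bars for the group means. The Casp9 and Bmf groups do not overlap, while for Bcl2l11 and Pmaip1 the ZPA array of run 1, at 17555 and 5852, lies far above the ZPA arrays of run 2.

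Among the BH3-only genes, Bmf, which senses changes at the cytoskeleton, was lower on all 3 ZPA arrays by its brightest probe set and lay just outside the threshold. Probe set 1454880_s_at was at 493, 362 and 448 on the ZPA arrays and at 1391, 1809, 993 and 821 on the non-ZPA arrays. The groups did not overlap. The means were 434 ± 66.6 and 1253 ± 441, a 2.71-fold difference (log2 fold change -1.44 ± 0.35, adjusted p = 0.0503). With the run as a block Bmf passed (-1.34, adjusted p = 0.0330). It also passed in limma with a pseudocount of 64 (adjusted p = 0.0470), median centring (0.0424) and robust eBayes (0.0454). It did not pass with quantile normalization (0.0695), with no intensity trend (0.0951), or with the replicate number as a block. In that block the adjusted p was 0.190 with the shared array as replicate 1 and 0.0702 with it as replicate 2. The suffix _s_at marks probes that can match more than 1 gene, so that signal from another gene cannot be told apart. The other tested Bmf probe set, 1458325_x_at, whose suffix marks possible cross-hybridisation, was at 340, 155 and 44.8 on the ZPA arrays and 12.1, 48.8, 312 and 44.4 on the non-ZPA arrays. It had the opposite sign with wide overlap (log2 fold change 1.0 ± 0.80, adjusted p = 0.557), and with the mean of both as the gene's value Bmf was at -0.22. This probe set was above the filter level only on ZPA arrays 1+2 and 3 and on non-ZPA array 3. It passed because the filter counts the shared ZPA array double, which favours a positive sign, so that its sign weighs little against the brightest. The third, 1422995_at, was not tested, at 7.1 to 70.3 over all arrays.

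Bcl2l11, the gene of the BH3-only protein Bim, had no common direction over the ZPA arrays. Its brightest probe set, 1456005_a_at, was at 17555 on ZPA array 1+2 but at 1505 on ZPA array 3 and 709 on ZPA array 4, against 6124, 10069, 5527 and 3988 on the non-ZPA arrays. The first lay above every non-ZPA array and the other two below every one. The log2 fold change was -1.18 ± 0.81 (adjusted p = 0.467). Within run 1 it was 1.16 and within run 2 it was -2.17, a difference of -3.33 ± 0.63. The interaction of group and run in limma had an adjusted p of 0.0334 (2.23% of all genes passed), but it was chosen after these values were seen and has a single ZPA array in run 1, so that it is no independent support for a difference between the runs. Without ZPA array 1+2 Bcl2l11 passed as lower (-2.54, adjusted p = 0.00275).

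The other 4 probe sets of Bcl2l11 did not follow the brightest. Probe set 1456006_at, annotated to the same source sequence as 1456005_a_at, was at 181, 54.2 and 143 on the ZPA arrays and 118, 116, 153 and 121 on the non-ZPA arrays. Its array 1+2 was the highest of the 7, as on the brightest probe set, but only 3.34 times the lowest, where the brightest spanned 24.8 times. The pair 1435448_at and 1435449_at, which share a source sequence, had log2 fold changes of -0.51 ± 0.32 and -0.62 ± 0.52 (adjusted p = 0.437 and 0.583). Probe set 1435448_at was at 540, 753 and 445 on the ZPA arrays and 896, 838, 872 and 672 on the non-ZPA arrays, so that only ZPA array 3 reached into the non-ZPA range. On 1426334_a_at the value was 0.12 ± 0.59.

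Pmaip1, the gene of the BH3-only protein Noxa and a known target of p53, had the widest range of the brightest probe sets. Its single probe set, 1418203_at, was at 5852 on ZPA array 1+2, 464 on ZPA array 3 and 247 on ZPA array 4, against 8936, 4866, 1603 and 2442 on the non-ZPA arrays. ZPA arrays 3 and 4 lay below every non-ZPA array, while ZPA array 1+2 lay between the non-ZPA arrays of its own run. The log2 fold change was -2.0 ± 0.88 (adjusted p = 0.239). It was -0.17 within run 1 and -2.49 within run 2, a difference of -2.32 ± 0.65 (interaction, adjusted p = 0.0850). Without ZPA array 1+2 Pmaip1 passed as lower (-3.35, adjusted p = 0.00437).

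Bak1, which forms pores in the outer mitochondrial membrane, was the member with the largest positive value. Probe set 1418991_at was at 224, 259 and 610.2 on the ZPA arrays and 102, 99.4, 257 and 202 on the non-ZPA arrays. ZPA array 1+2 lay within the non-ZPA range, and ZPA array 4 stood far above the rest. The log2 fold change was 1.03 ± 0.47 (adjusted p = 0.250). ZPA array 4 is also the array with the high leukocyte sum and the high Actb ratio, and without it the value was 0.61 (adjusted p = 0.522). The part of either in the Bak1 value was not tested. A second Bak1 probe set, 1425716_s_at, was below the filter level on all 7 arrays, at 2.0 to 26.1, and was not tested.

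Bcl2, the founding survival protein of the family, gave 5 tested probe sets that did not agree in size or in direction, with 4 lower and 1 higher in ZPA. The brightest, 1457687_at, was at 1742 on ZPA array 1+2, 646 on ZPA array 3 and 736 on ZPA array 4, against 1668, 1591, 1107 and 1289 on the non-ZPA arrays. ZPA arrays 3 and 4 were below every non-ZPA array and ZPA array 1+2 above every one. The log2 fold change was -0.56 ± 0.38 (adjusted p = 0.453), and without ZPA array 1+2 it was -1.0 (adjusted p = 0.0377).

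Groups that did not overlap were seen on 2 dimmer Bcl2 probe sets. On 1422938_at the intensity was 65.8, 216 and 208 on the ZPA arrays and 371, 255, 331 and 379.8 on the non-ZPA arrays (log2 fold change -1.10 ± 0.43, adjusted p = 0.201). On 1443837_x_at it was 7.1, 1.1 and 19.2 on the ZPA arrays, all below the filter level, and 79.6, 121, 73.5 and 138 on the non-ZPA arrays, all above it (-2.27 ± 0.63, adjusted p = 0.0831). This probe set passed the filter only through the non-ZPA arrays, which favours a lower value in ZPA, so that its direction is no support for a difference. The probe sets 1437122_at (-0.33 ± 0.58) and 1440770_at (0.61 ± 0.49) overlapped, and the last was higher on ZPA array 1+2, at 228, than on any non-ZPA array.

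Bcl2l1, the gene of the survival protein Bcl-xL, was not shown to differ. Its tested probe set, 1420888_at, was at 836, 747 and 2016 on the ZPA arrays and 845, 693, 1162 and 892 on the non-ZPA arrays. All but ZPA array 4 fell within the non-ZPA range. The log2 fold change was 0.29 ± 0.38 (adjusted p = 0.734), and without ZPA array 4 it turned to -0.16 (adjusted p = 0.834). Its other 3 probe sets were not tested. Of these, 1420887_a_at was at 235 on ZPA array 1+2 and 6.5 to 44.4 elsewhere, 1426050_at was at 122 on that array and 5.1 to 36.5 elsewhere, and 1426191_a_at was at 3.4 to 20.5 on all arrays. Over the 6 untested probe sets of the members, ZPA array 1+2 held the highest value in 4. That array also had the highest median intensity over all probe sets, 133.2 against 75.2 to 121.1 on the others. The share over all untested probe sets was not examined, so the count shows no trait of the members.

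**Figure D2:**
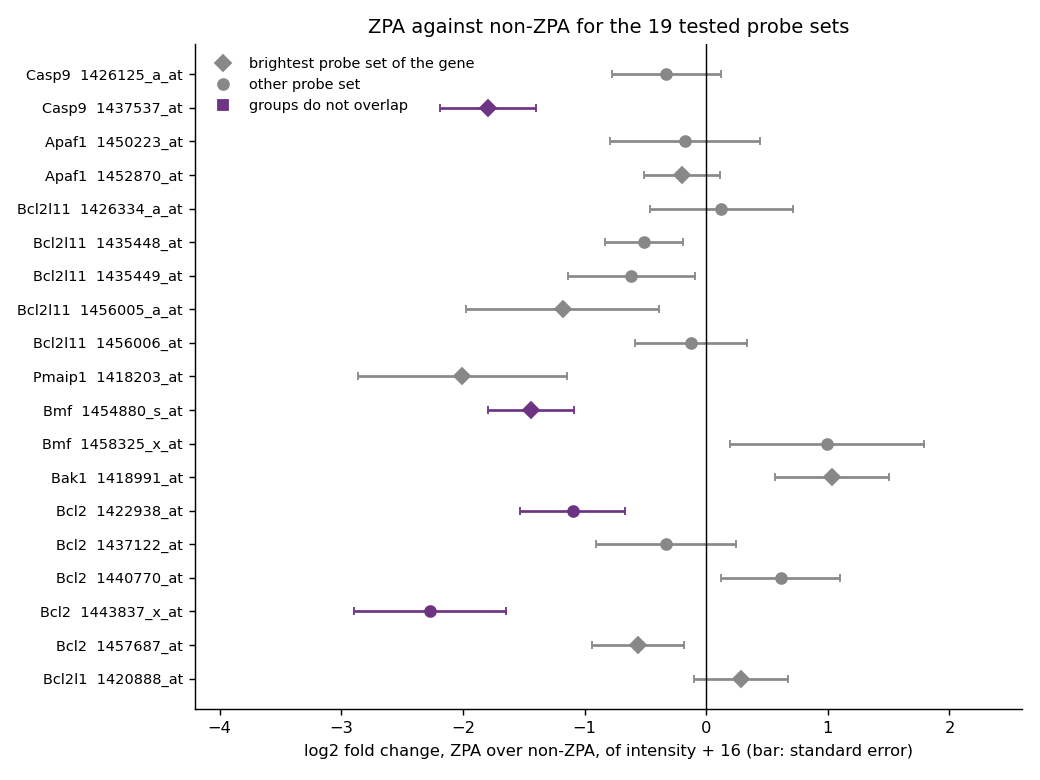
log2 fold change of ZPA over non-ZPA for the 19 tested probe sets, with the standard error of the fit over all probe sets as bars, diamonds for the brightest probe set of each gene and purple where the groups do not overlap. Of the 19, 14 are negative and 5 positive, and the 4 in purple belong to Casp9, Bmf and Bcl2. One of these, Bcl2 1443837_x_at (-2.27), passed the filter only through the non-ZPA arrays, which favours a negative sign, so that its sign is no support for a difference.

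Among the 8 tested member genes, 6 had a negative and 2 a positive log2 fold change, with a median of -0.87, where all 13341 tested genes had a median of -0.0037 with 6707 negative. The members were chosen with results of these data known, and passing the filter depends on the signal, so this describes the list and tests nothing. Groups did not overlap for 2 of the 8 genes, both lower, where 10.6% of all tested genes were lower without overlap, and for 4 of the 19 probe sets, where 8.87% of all were lower. One of the 4, Bcl2 1443837_x_at, was favoured to be lower by the way it passed the filter, so the count is a description only. No member gene and no member probe set was higher without overlap, where 7.77% of all genes and 8.17% of all probe sets were. An unadjusted p under 0.05 was reached by 4 of the 8 genes, against 19.3% of all genes. Of the 5 genes with more than 1 tested probe set, Casp9 and Apaf1 had the same sign on each.

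The run was examined as a block and by fitting each run alone, and a call in 1 fit and not in another does not show that the runs differ. Of the 8 members, the interaction of group and run had an adjusted p under 0.05 for Bcl2l11 alone, with the limit given above, 0.0850 for Pmaip1 and 0.318 to 0.927 for the other 6. With the run as a block, Casp9 (-1.70, adjusted p = 0.0249) and Bmf passed as lower, 2 of 8 members where 4.00% of all genes passed. In run 2 alone, 2 arrays against 2, Casp9 (-2.06, adjusted p = 0.0417), Bcl2l11 and Pmaip1 passed as lower, where 2.71% of all genes passed. In run 1 alone, where the lone ZPA array is taken to spread as the 2 non-ZPA arrays do, Bcl2l11 passed as higher and Bmf as lower, where 24.2% of all genes passed. Without ZPA array 1+2, 5 of the 8 (Casp9, Bcl2l11, Pmaip1, Bmf and Bcl2) passed as lower, where 7.76% of all genes passed as lower. With 2 ZPA arrays left, both of run 2, that fit sets run 2 ZPA cells against non-ZPA cells of both runs.

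**Figure D3:**
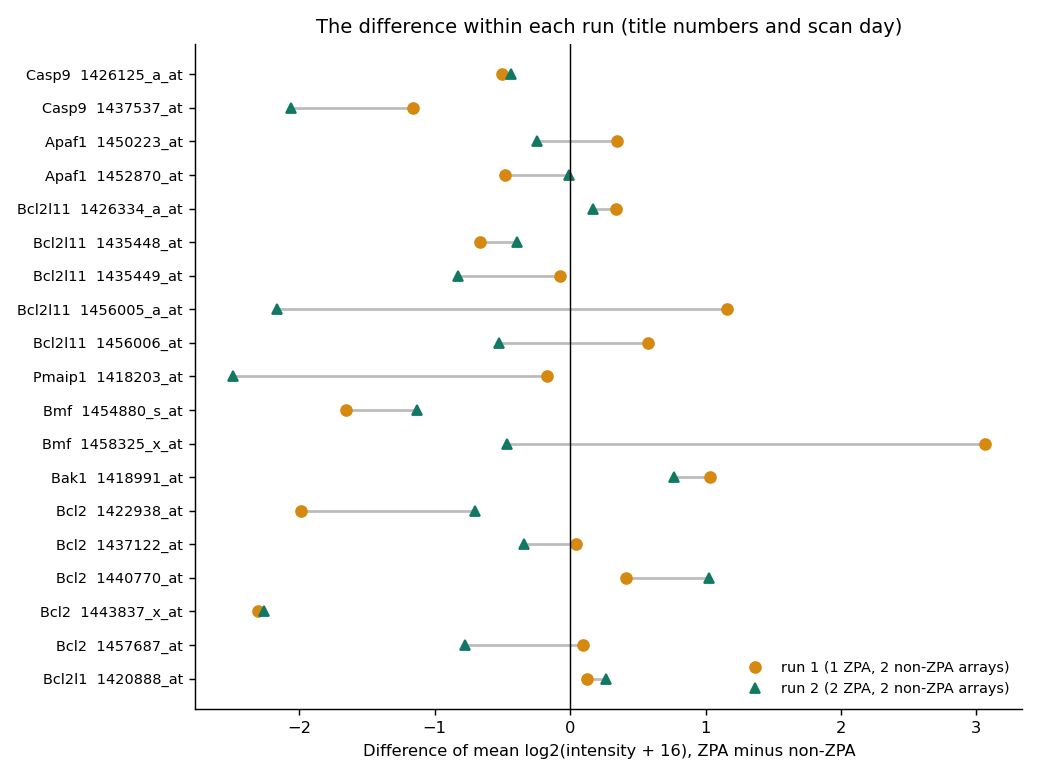
Difference of the mean log2(intensity + 16) between ZPA and non-ZPA arrays within run 1 (circles) and run 2 (triangles) for the 19 tested probe sets. The runs lie on opposite sides of 0 for the brightest probe sets of Bcl2l11 (1.16 and -2.17) and Bcl2 (0.095 and -0.78), and on the same side for those of Casp9 (-1.16 and -2.06) and Bmf (-1.65 and -1.13).

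**Figure D4:**
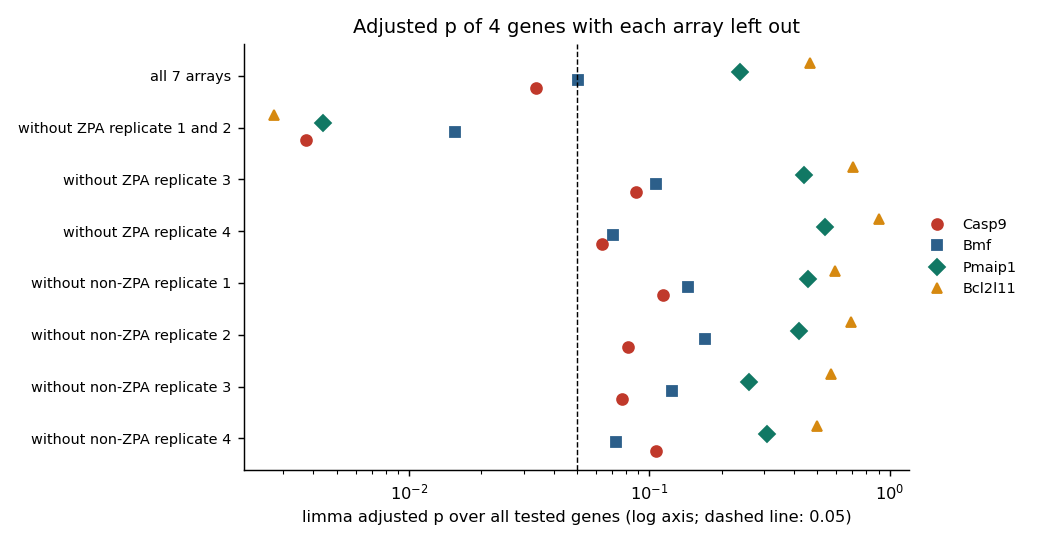
limma adjusted p over all tested genes, on a log axis with a dashed line at 0.05, for 4 members with all 7 arrays and with each array left out. All 4 lie left of the line without ZPA array 1+2 (labelled there as replicates 1 and 2), and none does when any other array is left out.

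In the rest of the cell death machinery, Cycs was higher and Bnip3 lower in ZPA cells. They were the 2 called of 49 tested genes in a wider list of 64, where 2.44% of all genes passed. An unadjusted p under 0.05 was reached by 13 of the 49, where 19.3% of all genes reached it, and the median log2 fold change was -0.09. Cycs, the gene of cytochrome c, rose 2.50-fold (log2 fold change 1.32 ± 0.28, adjusted p = 0.0296). It was at 45199, 28202 and 44545.5 on the ZPA arrays and 14289, 13778, 15395 and 18445 on the non-ZPA arrays. The groups did not overlap, and 4 of its 4 tested probe sets had this sign. The mouse genome holds processed copies of Cycs, and signal from near-identical copies cannot be told apart here. Bnip3, a hypoxia-responsive gene of the BCL2 family that acts in the removal of mitochondria, was lower by 2.63-fold, at 1604.5 ± 451 in ZPA and 4149 ± 331 in non-ZPA arrays (log2 fold change -1.40 ± 0.29, adjusted p = 0.0302). Both calls ended when any 1 of the 4 non-ZPA arrays was left out.

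No other gene of the wider list passed. In the BCL2 family, with 13 genes tested and a median of 0.10, the survival gene Mcl1 was at 9197, 7976 and 14015 on the ZPA arrays and 5420 to 7114 on the non-ZPA arrays. These groups did not overlap (0.78 ± 0.29, adjusted p = 0.168), and 3 of 6 Mcl1 probe sets had this sign. The 8 mitochondrial and apoptosome genes had a median of 0.12, with the channel gene Vdac1 at 0.66 (adjusted p = 0.271), a sign seen on 2 of its 5 tested probe sets. The 7 caspases and nuclease genes had the lowest median, -0.59, with Casp2, a caspase linked to DNA damage, at -1.24 ± 0.38 (adjusted p = 0.102) and the repair enzyme gene Parp1, a caspase substrate, at 0.86 (adjusted p = 0.205). The 6 inhibitors of apoptosis had a median of -0.11, with the mitotic Birc5 at -0.04 and Birc6 at 1.53 ± 0.42 (adjusted p = 0.0745). Of 5 tested Birc6 probe sets, 3 had this sign. The death receptor route (5 genes, median -0.09) held the receptor Tnfrsf1a at 0.32 and the caspase-8 inhibitor Cflar at -0.53. The p53 route (10 genes, median -0.32) held Sesn1 at -0.41 and Ccng1 at -0.27. By limma none of these last 4 sets had a called gene, and an unadjusted p under 0.05 was reached by 4 of 7, 1 of 6, 1 of 5 and 3 of 10 of their genes in this order, where 19.3% of all genes reached it.

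**Figure D5:**
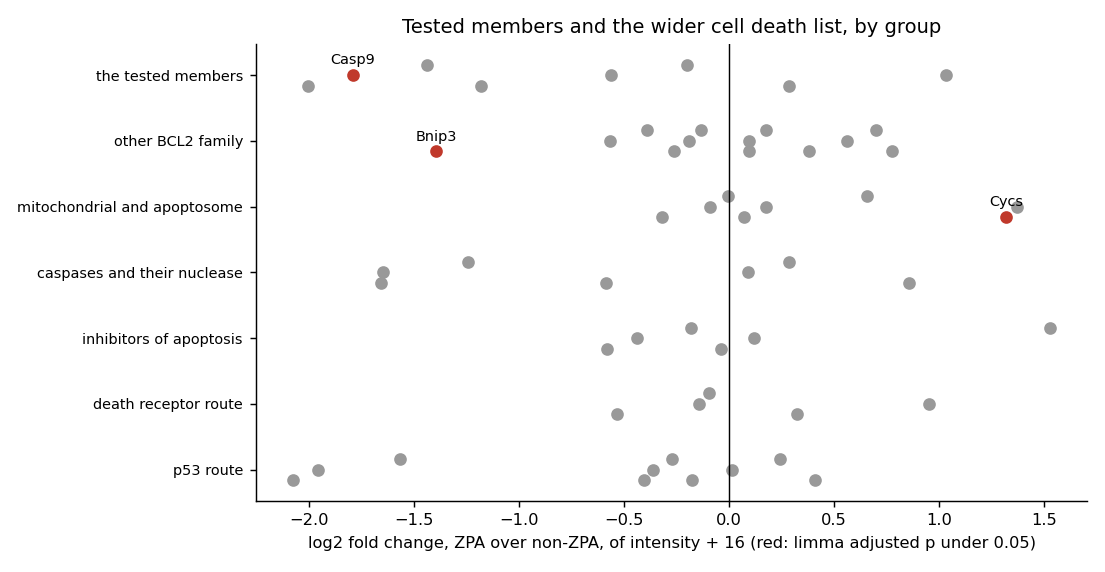
log2 fold change of ZPA over non-ZPA of each tested gene, 1 point per gene, for the 8 tested members and the 6 sets of the wider cell death list, with genes past the limma test in red. Casp9 (-1.79) and Bnip3 (-1.40) lie to the left of 0 and Cycs (1.32) to the right, and all other genes are grey.

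The genes whose log2 signal followed that of Casp9 most closely over the 7 arrays were Ggnbp2 (Pearson r = 0.991), Dolpp1 (0.981), Mycl (0.974), Ust (0.971) and Pmvk (0.971). With 7 arrays from 2 sorted groups and 2 runs, and 13341 genes searched, such values are a description only. Mycl (-2.16, adjusted p = 0.0402) and Ust (-1.83, adjusted p = 0.0445) were also called lower in ZPA cells, while Ggnbp2 (-0.50), Dolpp1 (-0.55) and Pmvk (-0.93) were not called.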

How the data were processed

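RNA of 8 samples of sorted limb bud cells, 4 ZPA and 4 non-ZPA, was amplified in 2 cycles from 50 ng of total RNA and hybridised to Mouse430_2 arrays, per the labels' protocols and the file headers. The submitters' processing notes name GCOS 1.3 for the deposited signal intensity, which is linear and already scaled by the authors, with a mean of 500 in every column once 2% of values at each end are dropped. How probes were summarised is not given in the sources used here. Other text in the deposited experiment files was used for the array type and the scan day.

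Values were taken as log2(intensity + 16), which understates the change of low genes, with no further scaling. Probe sets above the 40th percentile of their array (50.8 to 91.9) were tested if that held in at least 4 of the 8 columns, a filter that counts the shared ZPA array double, and 27816 passed. A gene took the probe set with the highest mean. The number of arrays limits the precision. limma 3.58.1 in R 4.3.3 was used (lmFit, eBayes with trend, 2-sided, Benjamini-Hochberg over all genes or probe sets, threshold 0.05), and the fit was tested on simulated data. Members, lists and alternatives were chosen with earlier results of these data known. Named were all members, in each set of the wider list the called genes or the brightest, the controls and markers, and the 5 genes most correlated with Casp9. Alternatives changed the pseudocount, scaling, filter, probe set rule, blocks, variance model, weights, threshold and arrays. Probe sets were named from the platform annotation.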

Additional observations from a re-analysis of the deposited data

Results flagged for a closer look

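Among the 19 tested member probe sets, 2 had 1 non-ZPA array far from the other 3. Probe set 1458325_x_at of Bmf was at 311.6 on non-ZPA array 3 and at 12.1 to 48.8 on the others. Probe set 1456006_at of Bcl2l11 was at 152.7 on non-ZPA array 3, where the others were at 116 to 121. The gap of that array to its neighbour was 0.877 and 0.854 of the range of the group, above Dixon's 95% critical value for a group of 4, which chance passes in about 1 in 20 groups. The difference between ZPA and non-ZPA of Bcl2l11, on 1456005_a_at, was lower in run 2 than in run 1 by a log2 difference of -3.325 (interaction in limma, adjusted p = 0.0334), with 1 ZPA array in run 1 and the test chosen after the values were seen.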

How the results depend on the processing

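The call of Casp9 ended with quantile normalization (log2 fold change -1.64, adjusted p = 0.0544), the mean of its probe sets (-1.06, 0.114), run 1 alone (-1.16, 0.0564) and no intensity trend (-1.79, 0.0725), and was -2.16 without ZPA array 1+2 and -1.94 to -1.48 without any other array. Member genes called, 1 in the report, were 2 with a pseudocount of 64, median centring, the run block, either replicate block, robust eBayes, ZPA replicates 1 and 2 counted apart, run 1 alone or a threshold of 0.1, 3 in run 2 alone, 4 with array weights, 5 without ZPA array 1+2 and 0 without any other array (2 to 4 at an unadjusted p under 0.05). They were 0 by limma with quantile normalization, the mean of probe sets and no trend (3, 4 and 2 at an unadjusted p under 0.05). Member probe sets called, 1 in the report, were 2 with the run block or the replicate block, 0 with quantile normalization (5 unadjusted), 6 without ZPA array 1+2 and 0 without any other array (3 to 7 unadjusted). All genes called, 326 in the report, were 172 with the mean of probe sets, 534 with the run block, 3227 in run 1 alone, 603 with the replicate block that takes the shared array as replicate 2, 175 with no trend, 1233 with array weights, 890 with ZPA replicates 1 and 2 counted apart, 825 at a threshold of 0.1, 1725 without ZPA array 1+2 and 101 to 356 without any other array. All probe sets called, 484 in the report, were 833 with the run block, 2615 without ZPA array 1+2 and 123 to 635 without any other array. Wider list genes called, 2 in the report, were 1 with quantile normalization, no filter, the mean of probe sets or run 2 alone, 4 with the run block, 5 with median centring, 6 with ZPA replicates 1 and 2 counted apart, 7 with the second replicate block or a threshold of 0.1, 8 with array weights, 12 in run 1 alone, 0 with no trend (12 unadjusted), 6 without ZPA array 1+2 and 0 to 5 without any other array (9 to 13 unadjusted). The sign turned for Apaf1 with array weights (0.024), Bcl2l11 (1.16) and Bcl2 (0.095) in run 1 alone, and Bcl2l1 without ZPA array 4 (-0.16, the lowest of its values with 1 array left out, which reached 0.55). The causes were not tested.

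Deviations from the group means had r from -0.0196 to 0.0784 over the tested genes for same-numbered arrays of the groups. For arrays of unlike number r was -0.104 to 0.0651. With 3 and 4 arrays, and 1 ZPA array that stands for replicates 1 and 2, these values cannot decide whether the numbers pair the arrays. The main fit used no pairing. With the replicate block Casp9 was called with the shared array as replicate 1 (-1.88, adjusted p = 0.0241) or as replicate 2 (-1.64, 0.0204), and so was Pmaip1 (-1.86, 0.0383, and -1.57, 0.0196). Median centring moved the median of all genes to -0.26, and no member changed sign under it.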

Other observations

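Within the non-ZPA cells, 10 of the 19 tested member probe sets (52.6%) had no overlap between the 2 arrays of run 1 and the 2 of run 2, 6 higher and 4 lower in run 1, close to the 45.5% of all tested probe sets. The difference between the runs within the non-ZPA cells was not tested. Of the brightest probe sets, those of Pmaip1, Bmf, Bcl2l11 and Bcl2 were higher in run 1 and those of Bak1 and Bcl2l1 lower. Pmaip1 was at 8936 and 4866 in run 1 and at 1603 and 2442 in run 2, while Bak1 was at 102 and 99.4 in run 1 and 257 and 202 in run 2.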
